A study of Mus musculus with 6 samples.

Results

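The hypoxia-inducible factor (HIF) pathway was followed through 10 genes in RNA sequencing data from Hepa1-6, an established line grown from a mouse liver tumour. The genes are the alpha subunits Epas1 and Hif1a, their partner Arnt, the prolyl hydroxylases Egln1, Egln2 and Egln3, and the hypoxia effectors P4ha1, Bnip3, Vegfa and Ankrd37. They were chosen by name, for what they do in the pathway, and with earlier results of these data known. The deposited tables have rows for 38828 genes, some of them at 0 counts in every library. Of the 10 chosen genes, 7 had enough counts to be tested. The study holds 6 libraries of total RNA. Of these, 3 came from cells given siRNA against Crebl2, which encodes a basic leucine zipper protein related to CREB factors, and 3 from cells given siRNA against Renilla luciferase (Luc), for which mouse cells have no target gene. Both groups were treated with lipid-delivered siRNA for 3 days, at 4.5 g/L glucose with 10% serum. No change of oxygen is named for either group. The labels number the replicates but do not say whether each had its own culture dish. The p-values thus reflect no more than the spread among these libraries, which may be technical.

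HIFs are transcription factors made of an oxygen-regulated alpha subunit, HIF-1 alpha (Hif1a) or HIF-2 alpha (Epas1), and a stable beta subunit (Arnt). With oxygen present, the EGLN enzymes hydroxylate prolines of the alpha subunit, which the von Hippel-Lindau protein (Vhl) then binds and marks for destruction, so alpha subunits are controlled largely at the protein level, which RNA counts do not show. When alpha subunits persist they raise glycolytic enzymes, angiogenic factors, mitophagy receptors, collagen-modifying enzymes and, as feedback, Egln3 itself, and in liver HIF-2 is known for its part in lipid, iron and erythropoietin control.

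Total counts were 27082572 to 27710914 in Crebl2 siRNA libraries and 27385328 to 29158489 in Luc siRNA libraries. Crebl2 itself had 813, 826 and 896 counts in the Crebl2 siRNA libraries, against 3248, 3162 and 3041 in the Luc siRNA libraries, 26.9% of the Luc siRNA level (log2 fold change -1.90, SE 0.0582, edgeR adjusted p = 2.82e-12). One library, Crebl2 siRNA replicate 2, had 0.859% of its counts on mitochondrial genes, against 2.09 to 2.52% in the other 5. Among all 11616 genes tested with edgeR, 2338 were lower (20.1%) and 2180 higher (18.8%) after Crebl2 siRNA at an adjusted p under 0.05. With library size alone as the scaling, 58.8% of calls were higher, against 48.3% here.

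The tables hold counts per transcript, and 9603 rows whose bases all occur in other rows took up 0.0235% of counts, so reads that fit several transcripts were apparently left out and a gene is visible only through bases that 1 of its transcripts has to itself. This limited which pathway genes could be measured. Vegfa, the main angiogenic growth factor, has 6 transcript rows without a single base of their own and held 0 counts in all 6 libraries. Hif1a has 3 rows with 766 bases of their own in all. The 2 long rows have 124 of 4385 and 42 of 4724 bases to themselves and held 5 and 2 counts over the 6 libraries, and a shorter row of 1759 bases has 600 to itself and held 1 count. Summed over rows, Hif1a held 3, 1 and 1 counts in the Crebl2 siRNA libraries and 1 in each Luc siRNA library. Arnt, whose best-counted row has 447 bases of its own, held 7, 6 and 7 counts in the Crebl2 siRNA libraries and 17, 3 and 7 in the Luc siRNA libraries. The Arnt ratio over the summed counts was 0.767, with a 95% exact binomial interval of 0.408 to 1.42 that covers counting error only. The Vegfa count says nothing about how much mRNA was present, and the Hif1a and Arnt counts say little about their long transcripts, which have few bases of their own. No change of Hif1a or Vegfa could be estimated, so a ratio of Epas1 to Hif1a could not be formed. Epas1, Egln1 and Egln3, in contrast, each have 1 row whose bases are all unique to it (5516, 3594 and 2662 bases).

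**Figure D1:**
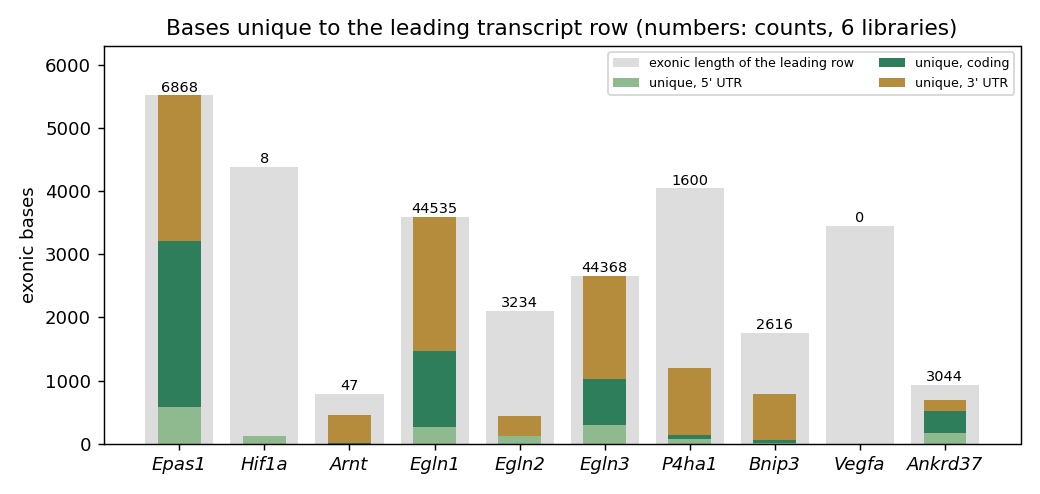
Exonic bases of the transcript row with the most counts of each gene (grey; for Vegfa, at 0 counts, the longest row) and the part unique to that row (coloured by 5′ UTR, coding sequence and 3′ UTR); the number over each bar is the gene's summed count in the 6 libraries. The leading Hif1a row has 124 unique bases (766 over all Hif1a rows, which together hold 8 counts), Vegfa has none and 0 counts, and the fully unique Epas1 row has 6868.

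Epas1, the HIF-2 alpha subunit gene (chromosome 17, 86753700 to 86833410, plus strand, GRCm38), fell most of the 7 tested genes. It had 25.2, 23.3 and 22.1 CPM (counts per 1000000, with TMM-scaled library sizes) in the Crebl2 siRNA libraries, against 59.3, 58.2 and 58.4 CPM in the Luc siRNA libraries. The highest Crebl2 siRNA library lay well under the lowest Luc siRNA library. The mean was 23.5 ± 1.54 CPM in Crebl2 siRNA libraries and 58.6 ± 0.568 CPM in Luc siRNA libraries (SD, n = 3 each), which is 40.2% of the Luc siRNA level (log2 fold change -1.32, SE 0.0643, edgeR adjusted p = 3.48e-10). Only 0.904% of the tested genes had a lower log2 fold change. An exact two-sided permutation test on log2 CPM returned p = 0.1 for Epas1 and for the other 5 called genes among the 10, which is the lowest value a design of 3 against 3 can reach. In bulk RNA, fewer cells that express a gene and less of its RNA per cell cannot be told apart.

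The 3′ UTR of the Epas1 transcript (2308 bases) holds the 7-base word GAAATGT at 2 positions, and the sites are shown because this word was more frequent among lowered genes as a whole. Counting genes with an annotated 3′ UTR, it was found in 692 of 2188 lowered genes (31.6%), 297 of 1904 raised genes (15.6%) and 2211 of 9916 tested genes (22.3%), without adjustment for 3′ UTR length. The word was chosen with earlier results of these data known, so these shares are descriptions and not a test. Among the 10 genes, Epas1, P4ha1 and Egln3 hold it. The sites read as follows, 5′ to 3′ on the transcript strand from GENCODE M21, with the word in capitals.
Epas1, base 1483 of the 3′ UTR: acagctaccatGAAATGTttttaatggga
Epas1, base 2263: aactttataagGAAATGTattttgacact
P4ha1, base 789: atttttaaaaaGAAATGTtttataagaag
P4ha1, base 833: ttctccattctGAAATGTgttataacaat
Egln3, base 47: taacagttccgGAAATGTtaagtgtcaag
The lowered genes Bnip3, Egln1 and Ankrd37 hold no such word in their annotated 3′ UTRs, nor does the uncalled Egln2. The part of the word in these changes was not tested.

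The prolyl hydroxylases did not move by equal amounts. Egln3 (chromosome 12, 54178981 to 54203860, minus strand), which like Egln1 is known to be induced by HIF, had 200.4, 202 and 184 CPM in the Crebl2 siRNA libraries, against 329, 328 and 350.0 CPM in the Luc siRNA libraries. Its groups were widely separated, with a mean of 196 ± 9.76 CPM in Crebl2 siRNA libraries and 336 ± 12.5 CPM in Luc siRNA libraries (SD, n = 3 each; log2 fold change -0.78, SE 0.052, edgeR adjusted p = 8.96e-09). Egln1 (chromosome 8, 124908587 to 124949324, minus strand) encodes the main oxygen sensor of the family in most cells. It had 241, 250.3 and 237 CPM in the Crebl2 siRNA libraries, against 282, 285 and 304 CPM in the Luc siRNA libraries, a smaller fall to 83.8% of the Luc siRNA level without overlap of the groups (log2 fold change -0.26, SE 0.0491, edgeR adjusted p = 0.00059). Egln2 (chromosome 7, 27158658 to 27166802, minus strand), which is not known as hypoxia-inducible, had 19.5, 18.7 and 17.4 CPM in the Crebl2 siRNA libraries, against 19.7, 22.2 and 18.6 CPM in the Luc siRNA libraries. These groups overlapped, and Egln2 was not called (log2 fold change -0.12, 95% interval -0.29 to 0.04, edgeR adjusted p = 0.265). Only 438 of its 2107 transcript bases are unique to its leading row, and it shares bases with Cyp2t4 on the other strand.

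Levels of different genes were set side by side only per length, as CPM per kb of unique exonic sequence summed over the rows of a gene. On that scale Egln3 averaged 73.5 ± 3.67 in Crebl2 siRNA libraries and 126 ± 4.68 in Luc siRNA libraries, Egln1 67.6 ± 1.82 in Crebl2 siRNA libraries and 80.7 ± 3.3 in Luc siRNA libraries, and Egln2 34.6 ± 1.97 in Crebl2 siRNA libraries and 37.6 ± 3.39 in Luc siRNA libraries (SD, n = 3 each). Egln3 was above Egln1 in each Luc siRNA library, whereas in the Crebl2 siRNA group the ranges of the 2 genes overlapped (69.3 to 75.9 for Egln3, 66.1 to 69.6 for Egln1). The ratio of Egln3 to Egln1 within a library, a measure chosen after the values were seen and free of the library scaling, was 1.12, 1.09 and 1.05 in the Crebl2 siRNA libraries, against 1.57, 1.56 and 1.56 in the Luc siRNA libraries. The groups did not overlap (exact two-sided permutation p = 0.1, the smallest possible). As a share of the 3 enzymes' summed level per kb, Egln3 made up 41.3 to 42.1% in Crebl2 siRNA libraries and 50.5 to 52.4% in Luc siRNA libraries.

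**Figure D2:**
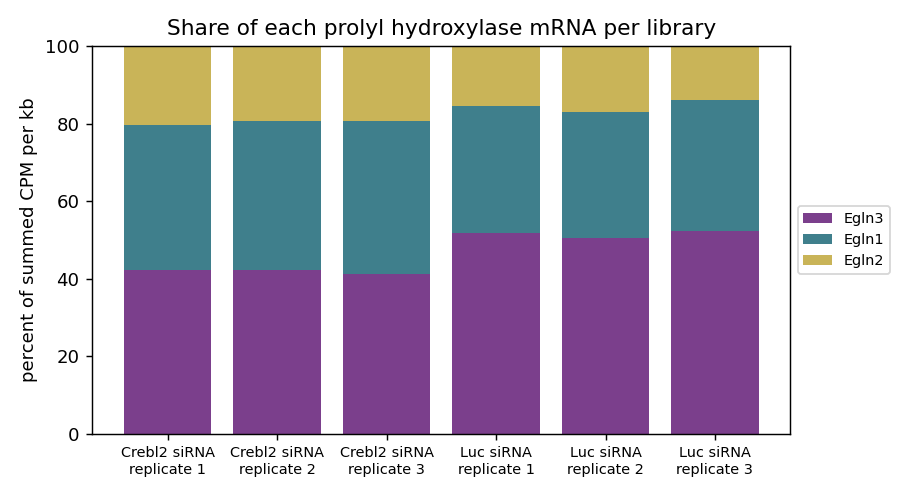
Share of each prolyl hydroxylase mRNA in the summed CPM per kb of Egln1, Egln2 and Egln3 (vertical axis, percent) in each of the 6 libraries, Crebl2 siRNA left. The Egln3 share is 41.3 to 42.1% in the Crebl2 siRNA libraries and 50.5 to 52.4% in the Luc siRNA libraries.

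Per kb, the other tested genes were lower than the prolyl hydroxylases in every library. Ankrd37 averaged 24 ± 3.2 in Crebl2 siRNA libraries and 29.3 ± 2.68 in Luc siRNA libraries, and Bnip3 12.3 ± 1.46 in Crebl2 siRNA libraries and 22.8 ± 2.07 in Luc siRNA libraries (CPM per kb, SD, n = 3 each). P4ha1 averaged 4.96 ± 0.386 in Crebl2 siRNA libraries and 11.1 ± 0.21 in Luc siRNA libraries, close to Epas1 at 4.27 ± 0.28 in Crebl2 siRNA libraries and 10.6 ± 0.103 in Luc siRNA libraries (CPM per kb, SD, n = 3 each). P4ha1 lay above Epas1 in each library, with adjacent ranges in the Crebl2 siRNA group (4.69 to 5.41 for P4ha1, 4.01 to 4.57 for Epas1). The P4ha1 value rests on 1192 bases unique to its longest transcript, and the Epas1 value on a whole transcript. Where only part of a gene is unique, the order of these values need not be that of total mRNA.

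Of the effectors, P4ha1 fell most. P4ha1 (chromosome 10, 59323296 to 59373304, plus strand) encodes a catalytic subunit of the collagen prolyl hydroxylase. It had 160, 179 and 155 counts in the Crebl2 siRNA libraries, against 370, 371 and 365 in the Luc siRNA libraries. Each Crebl2 siRNA library held fewer than any Luc siRNA library, and the level was 44.7% of Luc siRNA (5.92 ± 0.461 CPM in Crebl2 siRNA libraries and 13.2 ± 0.25 CPM in Luc siRNA libraries, SD, n = 3 each; log2 fold change -1.16, SE 0.097, edgeR adjusted p = 1.16e-07). Of its 1192 unique bases 1053 lie in the 3′ UTR, so the count mostly reflects that end of the longest transcript.

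Bnip3 (chromosome 7, 138890836 to 138909519, minus strand), which encodes a mitophagy receptor of the outer mitochondrial membrane, had 276, 345 and 296 counts in the Crebl2 siRNA libraries, against 588, 513 and 598 in the Luc siRNA libraries. The groups did not overlap (11 ± 1.3 CPM in Crebl2 siRNA libraries and 20.3 ± 1.85 CPM in Luc siRNA libraries, SD, n = 3 each; log2 fold change -0.89, SE 0.0983, edgeR adjusted p = 2.59e-06). Bnip3 is uncertain as a locus, since its transcript matches 5 other annotated genes at 95% identity or more over at least 100 bases, among them the lincRNA AC160336.1 (98.3% over 858 bases) and the processed pseudogene Gm16439 (98.9% over 564 bases).

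Ankrd37 (chromosome 8, 45996902 to 46005707, minus strand), a small ankyrin-repeat gene that HIF-1 induces, had 501, 484 and 386 counts in the Crebl2 siRNA libraries, against 542, 530 and 601 in the Luc siRNA libraries. The groups were close but did not overlap in CPM (16.4 ± 2.19 CPM in Crebl2 siRNA libraries and 20 ± 1.83 CPM in Luc siRNA libraries, SD, n = 3 each; log2 fold change -0.29, SE 0.0985, edgeR adjusted p = 0.0292). This call is fragile: the edgeR adjusted p was 0.112 without Crebl2 siRNA replicate 3 (log2 fold change -0.18), 0.152 without Luc siRNA replicate 3 (-0.21) and 0.074 with library size as the scaling (-0.24). Ankrd37 also shares bases with Ufsp2 and Lrp2bp on the other strand, and the sources used here do not give the strand setting of the counting.

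In all, 6 of the 7 tested genes fell and Egln2 was not called, where 20.1% of all tested genes were called lower. The same 6 had groups that did not overlap, as did 24.9% of all tested genes in the downward direction. The median log2 fold change of the 7 was -0.78, against 0.01 over all genes tested. Since the genes were chosen with earlier results of these data known, these shares are descriptions and not a test. Without Crebl2 siRNA replicate 2, the library low in mitochondrial counts, the same 6 were called.

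**Figure D3:**
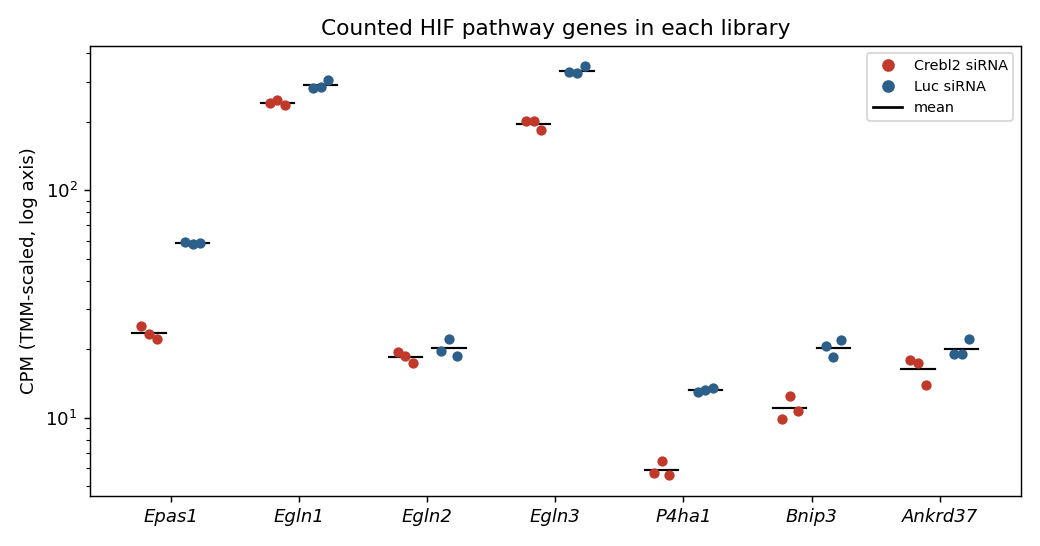
CPM in each library (log axis) for the 7 tested genes, Crebl2 siRNA left of Luc siRNA for each gene; points are single libraries and black bars the means of 3. Epas1, Egln3, P4ha1 and Bnip3 show wide gaps between the groups, Egln1 and Ankrd37 narrow ones, and the Egln2 groups overlap.

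**Figure D4:**
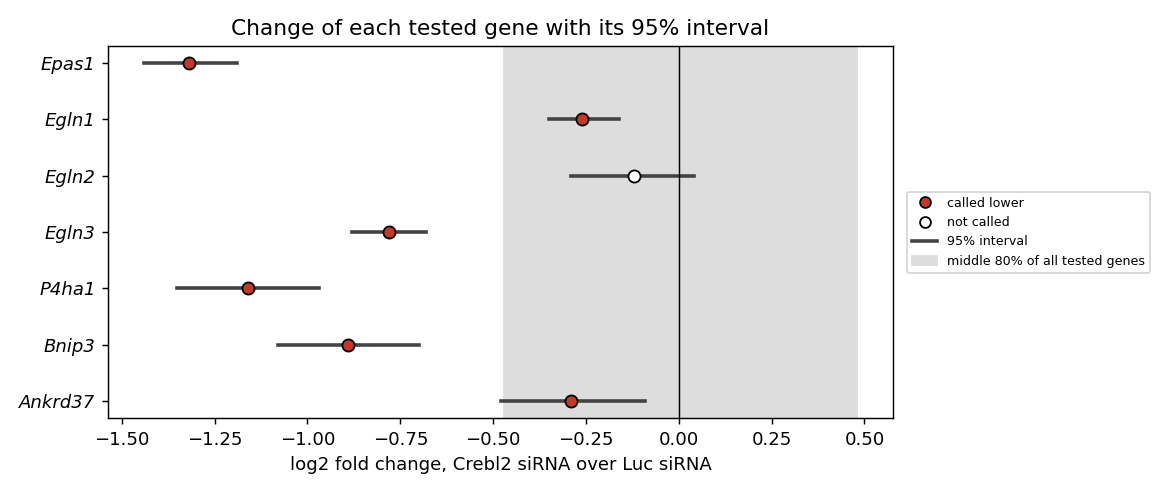
log2 fold change of Crebl2 siRNA over Luc siRNA (horizontal axis) for each tested gene with its 95% interval; red points were called lower, and the grey band spans the middle 80% of all 11616 tested genes, -0.47 to 0.48. Epas1 (-1.32), P4ha1 (-1.16), Bnip3 (-0.89) and Egln3 (-0.78) lie left of the band, and Ankrd37, Egln1 and Egln2 inside it.

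The start regions of 3 lowered genes and of the uncalled Egln2 are shown because HIF binds the letters ACGTG or GCGTG, the core of the hypoxia response element. The windows hold the 250 bases before the start site (RefSeq, GRCm38.p6), on the strand of the gene, 5′ to 3′, with matches to either core on either strand in capitals. ACGTG is also part of the E-box CACGTG, which reads the same on both strands and counts as 2 matches.
Bnip3, chr7:138909507-138909756, minus strand: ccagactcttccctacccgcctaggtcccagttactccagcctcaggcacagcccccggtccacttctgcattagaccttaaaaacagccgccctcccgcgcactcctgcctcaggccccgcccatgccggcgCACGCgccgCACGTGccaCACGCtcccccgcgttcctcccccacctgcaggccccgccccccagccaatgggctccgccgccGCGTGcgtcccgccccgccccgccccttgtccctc
P4ha1, chr10:59323046-59323295, plus strand: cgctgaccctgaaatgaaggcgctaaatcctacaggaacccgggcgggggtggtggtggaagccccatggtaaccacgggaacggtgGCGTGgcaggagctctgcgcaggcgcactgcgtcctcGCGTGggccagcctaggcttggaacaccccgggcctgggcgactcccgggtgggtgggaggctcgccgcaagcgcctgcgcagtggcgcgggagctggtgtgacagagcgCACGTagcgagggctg
Egln3, chr12:54203875-54204124, minus strand: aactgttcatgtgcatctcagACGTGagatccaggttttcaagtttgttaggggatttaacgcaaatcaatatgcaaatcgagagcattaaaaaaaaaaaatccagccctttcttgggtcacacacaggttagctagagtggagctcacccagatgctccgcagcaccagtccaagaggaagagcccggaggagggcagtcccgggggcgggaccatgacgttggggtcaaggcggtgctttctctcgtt
Egln2, chr7:27166803-27167052, minus strand: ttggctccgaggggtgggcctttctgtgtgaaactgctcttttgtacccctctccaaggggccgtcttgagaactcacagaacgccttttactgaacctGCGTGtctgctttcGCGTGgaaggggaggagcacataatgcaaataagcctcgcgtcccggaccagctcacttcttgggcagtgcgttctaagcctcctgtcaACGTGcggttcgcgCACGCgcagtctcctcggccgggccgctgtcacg

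The Bnip3 window has 5 matches, with CACGTG as 2 of them, the P4ha1 window 3, the Egln3 window 1 and the printed Egln2 window 4. Windows of Ankrd37 and Egln1, not printed, have 4 and 2. Of 32851 such windows in the table, 38.6% hold at least 1 match, 16.7% hold 2 or more and 6.02% hold CACGTG. Both cores hold the letters CG, and these shares were not adjusted for G and C content. It was 72.4% in the Bnip3 window, 69.6% in P4ha1, 50.8% in Egln3 and 59.2% in the printed Egln2 window. The Ankrd37 and Egln1 windows were at 67.6% and 86%. A second Egln2 window, at another start site, has 1 match. Epas1 was not part of this comparison. The matches describe letters and not binding, and elements outside the window were not searched.

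Among 21 other genes of HIF subunits and their regulators, 15 were tested, and 3 fell, 2 rose and 10 were not called (median log2 fold change -0.09). The 20% called lower is the share found over all tested genes (20.1%), and the share called higher is under the 18.8% of all genes. Cited2, which competes with HIF alpha subunits for the coactivators p300 and CBP and is itself induced by HIF, was the largest fall, to 87.5 ± 1.76 CPM in Crebl2 siRNA libraries, against 154 ± 5.47 CPM in Luc siRNA libraries (SD, n = 3 each; log2 fold change -0.81, SE 0.0512, edgeR adjusted p = 5.29e-09). Os9, an ER lectin, changed by -0.52 (edgeR adjusted p = 0.00219) and Siah2, a ubiquitin ligase that targets prolyl hydroxylases, by -0.20 (edgeR adjusted p = 0.015) on the log2 scale. The chaperone gene Hsp90ab1 (0.19, edgeR adjusted p = 0.00324) and Ep300, the gene of p300 (0.18, edgeR adjusted p = 0.045), rose slightly, although the Ep300 groups overlapped. The Ep300 call was lost in 5 of 15 alternative settings, among them those without Crebl2 siRNA replicate 2 (0.12, edgeR adjusted p = 0.213), Luc siRNA replicate 2 (0.11, adjusted p = 0.246) or Luc siRNA replicate 3 (0.16, adjusted p = 0.136). The Siah2 call was lost without Crebl2 siRNA replicate 2 (edgeR adjusted p = 0.0551), without Luc siRNA replicate 3 (0.0698) and with library size as the scaling (0.0555).

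Vhl and Hif1an, whose proteins act directly on alpha subunits as the EGLN enzymes do, were not called, whereas Egln1 and Egln3 fell. Vhl had 170, 166 and 178 CPM in the Crebl2 siRNA libraries, against 160, 159 and 156 CPM in the Luc siRNA libraries, so its groups did not overlap but it missed the threshold (log2 fold change 0.12, 95% interval 0.02 to 0.22, edgeR adjusted p = 0.0673). Hif1an, the asparagine hydroxylase that blocks coactivator binding, was at 238 ± 0.885 CPM in Crebl2 siRNA libraries and 257 ± 11.6 CPM in Luc siRNA libraries (SD, n = 3 each), likewise without overlap and short of a call (log2 fold change -0.11, edgeR adjusted p = 0.0944). Hif3a, the third alpha subunit gene, has 4299 unique bases in its main row and 0 counts in all 6 libraries, and was not tested.

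Target genes were sorted, from textbook knowledge mostly gained in human cells, into those preferred by HIF-1, those preferred by HIF-2 and those shared. The lists were chosen with earlier results of these data known, and were described by counts and medians, without a test of the list. Lower calls made up 61.1%, 72.7% and 50% of the tested HIF-1-preferred, HIF-2-preferred and shared targets, against 20.1% of all tested genes.

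Of 24 HIF-1-preferred targets 18 were tested, and 11 fell while 7 were not called (median log2 fold change -0.34). The glycolytic enzymes Pgk1, Pgam1 and Pfkl were among them, at 44.8 ± 3.09 CPM in Crebl2 siRNA libraries and 70.2 ± 3.67 CPM in Luc siRNA libraries for Pgk1 (SD, n = 3 each; log2 fold change -0.65, edgeR adjusted p = 7.78e-07). Pgam1 changed by -0.46 and Pfkl by -0.45 on the log2 scale, with edgeR adjusted p of 1.3e-05 and 7.76e-05. Ero1l, the ER disulfide oxidase, had 121, 135 and 122 CPM in the Crebl2 siRNA libraries, against 219, 171 and 187 CPM in the Luc siRNA libraries (log2 fold change -0.61, edgeR adjusted p = 7.13e-06). Of the 18 tested genes of this list 4 hold GAAATGT. Among the 11 lowered genes 1 does, where 31.6% of all lowered genes hold it. That gene is Pdk1 (log2 fold change -0.14, edgeR adjusted p = 0.0281, called in 9 of 14 alternative settings). Aldoc (-0.64, edgeR adjusted p = 0.0441) was less stable still, called in 5 of 15 alternative settings. Over those 15 settings 8 to 11 genes of this list were called lower. Ldha and Gapdh, 2 classical members, had 1 and 16 counts over the 6 libraries, with at most 49 and 222 unique bases in a row, and were not tested. Processed pseudogenes of Pgk1 and Pgam1 are known in the mouse genome, and reads shared with them were not examined.

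Of 15 HIF-2-preferred targets 11 were tested, and 8 fell, 1 rose and 2 were not called (median log2 fold change -0.40). The iron exporter Slc40a1 fell to 91.1 ± 6.77 CPM in Crebl2 siRNA libraries, against 176 ± 3.35 CPM in Luc siRNA libraries (SD, n = 3 each; log2 fold change -0.95, edgeR adjusted p = 2.7e-09). The membrane metalloproteinase Mmp14 changed by -0.83 (edgeR adjusted p = 2.61e-09) and cyclin D1 (Ccnd1) by -0.40 (edgeR adjusted p = 3.99e-06) on the log2 scale. Against the direction of the list, the growth factor Areg rose (log2 fold change 0.98, edgeR adjusted p = 0.00127), on 215 counts in Crebl2 siRNA and 109 in Luc siRNA libraries. The 3′ UTR word is held by 6 of the 8 lowered genes, among them Ccnd1, Slc40a1, Irs2, Angpt2 and Pla2g16, and not by Mmp14 and Slc11a2. Over all lowered genes with an annotated 3′ UTR the share was 31.6%, without adjustment for 3′ UTR length. The part of the word in these falls was not tested. The calls nearest the threshold were unstable, with Slc11a2 (log2 fold change -0.16, edgeR adjusted p = 0.0454) called in 6 of 15 alternative settings and Angpt2 (-0.54, edgeR adjusted p = 0.0345) in 6 of 14; each lost its call when Crebl2 siRNA replicate 2 or any 1 Luc siRNA library was left out. Of the 11 tested genes of this list 7 hold the word. Leaving out all genes that hold it removes the 6 lowered ones by construction, and 2 genes of this list were then called lower. Epo, the classical HIF-2 target, held 0 counts, with at most 36 unique bases in a row.

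Of 23 shared targets 16 were tested, and 8 fell, 2 rose and 6 were not called (median log2 fold change -0.25). Insig2, a sterol sensor partner that HIF induces in liver, fell to 41.2 ± 2.75 CPM in Crebl2 siRNA libraries, against 73.8 ± 1.69 CPM in Luc siRNA libraries (SD, n = 3 each; log2 fold change -0.84, edgeR adjusted p = 2.32e-08), and it holds the word. The glucose transporter Slc2a1 (log2 fold change -0.42, edgeR adjusted p = 0.000226) and the mitochondrial protein gene Fam162a (-0.34, edgeR adjusted p = 0.000105) also fell. Igfbp3, an IGF-binding protein, rose to 15.5 ± 0.714 CPM in Crebl2 siRNA libraries, against 10.3 ± 0.905 CPM in Luc siRNA libraries (SD, n = 3 each; log2 fold change 0.59, edgeR adjusted p = 8.1e-05), as did the lipase inhibitor Angptl4 (0.28, edgeR adjusted p = 0.000864). The lipid droplet coat gene Plin2, a shared target, had a log2 fold change of 0.01 (95% interval -0.09 to 0.11) on 51797 counts in Crebl2 siRNA and 51424 in Luc siRNA libraries. Since Hif1a was not measurable, the 3 lists could be set beside Epas1 alone, and 3 libraries a group are too few for a correlation within a group.

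**Figure D5:**
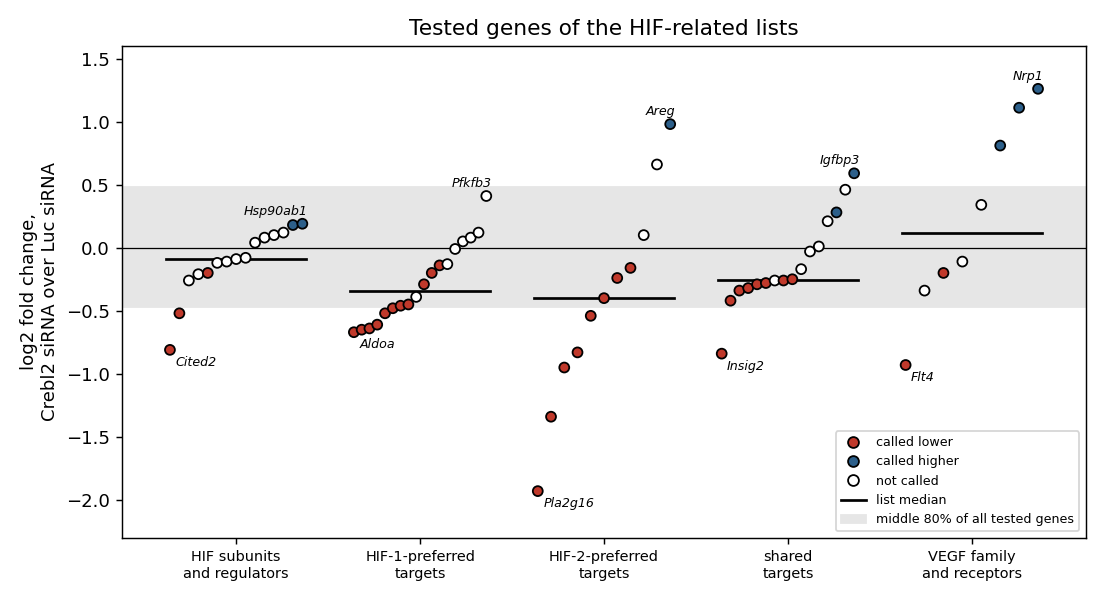
log2 fold change of Crebl2 siRNA over Luc siRNA (vertical axis) for the tested genes of 5 lists, ordered within each list; red points were called lower, blue higher and white not called, black bars are list medians, the grey band spans the middle 80% of all tested genes, and the lowest and highest gene of each list are labelled. Medians are -0.34, -0.40 and -0.25 for HIF-1-preferred, HIF-2-preferred and shared targets, and Pla2g16, the lowest point, rests on 11 counts in Crebl2 siRNA and 43 in Luc siRNA libraries.

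Of 6 other collagen prolyl and lysyl hydroxylase genes only P4hb and Plod3 could be tested, and Plod3, a lysyl hydroxylase gene, fell by 0.25 on the log2 scale (edgeR adjusted p = 0.00209), while P4hb, the beta subunit partner of P4ha1, was not called (0.04, 95% interval -0.05 to 0.13). Of 9 mitophagy receptor and PINK1 pathway genes 6 were tested: Nipsnap1 fell (-0.19, edgeR adjusted p = 0.00532), Phb2 rose (0.19, edgeR adjusted p = 0.0092) and 4 were not called, so 16.7% were lower, under the share over all genes. Without Luc siRNA replicate 3, Phb2 missed the threshold (0.17, edgeR adjusted p = 0.0596). Bnip3l, the closest relative of Bnip3, held 0 counts with at most 42 unique bases in a row.

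Of 8 tested genes of the VEGF family and its receptors, 3 rose and 2 fell (25% lower, against 20.1% of all tested genes, where 18.8% rose). The coreceptor Nrp1 rose to 83.1, 93.9 and 99.1 CPM in the Crebl2 siRNA libraries, against 40.6, 36.9 and 38 CPM in the Luc siRNA libraries (log2 fold change 1.26, SE 0.0687, edgeR adjusted p = 1.07e-09), with no overlap. Flt4, the receptor of Vegfc and Vegfd, fell to 126 ± 11.1 CPM in Crebl2 siRNA libraries, against 240.4 ± 1.92 CPM in Luc siRNA libraries (SD, n = 3 each; log2 fold change -0.93, edgeR adjusted p = 5.43e-09), and holds the word. The ligand Vegfd rose on 147 counts in Crebl2 siRNA and 68 in Luc siRNA libraries (log2 fold change 1.11, edgeR adjusted p = 0.00162). Flt1, a VEGF receptor gene, rose (0.81, edgeR adjusted p = 0.00619) with 98, 190 and 112 counts in the Crebl2 siRNA libraries, against 69, 82 and 78 in the Luc siRNA libraries, the 190 being in replicate 2, and Vegfc fell slightly (-0.20, edgeR adjusted p = 0.0329). The Vegfc call was lost with library size as the scaling and when any 1 library other than Crebl2 siRNA replicate 3 was left out, with edgeR adjusted p of 0.0517 to 0.202 and log2 fold changes of -0.22 to -0.14.

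Markers of the labelled cell type were present in part. Alb and Afp, the adult and fetal albumins of liver, had 45028 and 29742 counts in Crebl2 siRNA libraries and 48500 and 23222 in Luc siRNA libraries, while Hnf4a and Apoa2 held 0 counts on at most 6 and 29 unique bases in a row, and Apob, with 13934 unique bases, held 16 counts in Crebl2 siRNA and 6 in Luc siRNA libraries. The 11 hepatocyte markers summed to 1056 to 1138 CPM in Crebl2 siRNA libraries and 1115 to 1198 CPM in Luc siRNA libraries. Of 7 tested, 3 fell, namely Fgb (log2 fold change -1.41), Foxa3 (-0.81) and Trf (-0.42), and 2 rose, among them Afp (0.36). Lower calls thus made up 42.9% of those tested, against 20.1% of all tested genes, where 18.8% rose.

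Epas1 is strongly expressed in endothelium, so the markers of that cell type are given beside it. Of 8 endothelial markers 5 held 0 counts, namely Emcn (1231 unique bases over its rows), Tie1 (777), Erg (348), Egfl7 (233) and Tek, whose 48 unique bases make its 0 uninformative. Of the others, Pecam1 and Cdh5 held at most 3 counts over the 6 libraries, and Vwf was the 1 gene counted. The list summed to 33 to 37.1 CPM in Crebl2 siRNA libraries and 19.6 to 23 CPM in Luc siRNA libraries, and Vwf rose (log2 fold change 0.72, edgeR adjusted p = 1.61e-06) where Epas1 fell. Of 7 macrophage and leukocyte markers 3 were tested. Cd14 (-0.61) and Lyz2 (-0.84) fell and Cd68 was not called (0.12). The list summed to 23.1 to 27.8 CPM in Crebl2 siRNA libraries and 37 to 39.3 CPM in Luc siRNA libraries. Nearly all of this was Cd14, with means of 23.7 CPM in Crebl2 siRNA and 36.2 CPM in Luc siRNA libraries. Ptprc, which defines leukocytes, was at 0. The Lyz2 call was lost without Luc siRNA replicate 2 (-0.69, edgeR adjusted p = 0.106) or replicate 3 (-0.71, adjusted p = 0.0911). Of 8 fibroblast and stellate cell markers 3 were tested, with Dcn lower (-0.55), Des higher (0.35) and Col1a1 not called (-0.22). The list summed to 178 to 197 CPM in Crebl2 siRNA libraries and 224 to 236 CPM in Luc siRNA libraries, mostly from Dcn and Des. Col3a1 (5423 unique bases) and Pdgfrb (126, too few to be informative) were at 0. Over all tested genes 20.1% were called lower and 18.8% higher, and these lists hold too few tested genes for a share to be read. The part of these markers in the changes of the HIF genes was not tested.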

How the data were processed

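Total RNA of 6 Hepa1-6 libraries was sequenced after a stranded total RNA preparation. The authors deposited raw read counts per Ensembl transcript, 58611 rows a library, without normalisation. Trim Galore, TopHat and HTSeq and the builds mm9 and GRCm38 are named, without versions or roles, per the submitters' processing notes. By identifier, 58264 rows matched GENCODE M21 (GRCm38), and the 347 others made up 0.0497% of a library or less. Deposited counts were summed per gene and tested by quasi-likelihood in edgeR 4.0.16 (R 4.3.3), two-sided, with TMM scaling, filterByExpr and Benjamini-Hochberg adjustment over 11616 genes, called at an adjusted p under 0.05. A symbol with several gene identifiers was read from the one with most counts. Each SE is the fold change over the square root of its F statistic, and 95% intervals span 1.96 SE either side. Unique bases were those in no other row on either strand. The procedure was tested on simulated counts with known changes. Few genes were changed there, and by more than Egln1 or Ankrd37 here. That test therefore does not bear on the scaling or on such small changes.

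The genes, the 11 lists and the rules were chosen with earlier results of these data known. From each list the text names up to 4 called genes with the smallest p, or the 1 smallest where none was called, plus Vhl, Hif1an and Hif3a. Other genes named, among them Areg, Angptl4, Ep300, Vegfc, Plin2, Pdk1, Slc11a2 and those with few or no counts, were chosen after their values were seen. The alternatives were other scalings and filters, DESeq2 1.42.0, voom in limma 3.58.1, transcript rows, a replicate block and each library left out. Chi-square per degree of freedom was 15.8 to 27.3 between Crebl2 siRNA libraries and 3.29 to 10.2 between Luc siRNA libraries, above sampling noise. Each library counted as 1 sample, although this spread does not show that the libraries are independent. No protein sequences were used here. Values of some genes that the rule names are not reported here.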

Additional observations from a re-analysis of the deposited data

How the results depend on the processing

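Epas1, Egln1, Egln3, P4ha1 and Bnip3 were called lower in each of 14 alternative settings, with log2 fold changes of -1.37 to -1.27, -0.28 to -0.21, -0.80 to -0.73, -1.22 to -1.11 and -0.98 to -0.81, and Egln2 was called in none (-0.18 to -0.05). Ankrd37 was called in 11 of 14. The count of the 7 tested genes called lower was 5 with library size as the scaling and 5 to 6 with 1 library left out; with all genes holding the 3′ UTR word removed, a use of that setting added after seeing the data, 3 of the 4 left were lower, by construction without Epas1, P4ha1 and Egln3. In that setting 5 HIF regulators were lower and 1 higher, 2 HIF-2-preferred targets were lower and 1 VEGF family gene was lower. The last 2 counts are likewise by construction without the HIF-2-preferred targets that hold the word and without Flt4. Over the 15 alternative settings 8 to 11 HIF-1-preferred targets were called lower. HIF-2-preferred targets called lower numbered 6 with DESeq2, with no filter and with the replicate block. HIF-2-preferred targets called higher numbered 3 with library size as the scaling and 2 with no filter or a 1 CPM filter. VEGF family genes called lower numbered 1 with library size as the scaling. With a 1 CPM filter 1 hepatocyte marker was higher and 1 leukocyte marker lower. With 1 library left out, counts ran from 1 to 2 for HIF-2-preferred targets higher, 1 to 2 for VEGF genes lower, 1 to 2 for HIF regulators higher, 0 to 1 for mitophagy genes higher and 1 to 2 for leukocyte markers lower. The cause of these shifts was not tested.

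Same-numbered libraries of the 2 groups had correlations of deviations from the group mean of -0.206, -0.071 and -0.123. Libraries of unlike number had -0.043 to 0.148. No pairing by number was thus seen, but this cannot show whether same-numbered libraries were handled together. With the replicate block 6 of the 7 tested genes were lower and 1 HIF regulator was higher. The planned ratio of Epas1 to Hif1a was not run, as Hif1a held 1 to 3 counts a library. Low counts limit Hif1a, Arnt, Vegfd and Pla2g16, and the long transcripts of Hif1a and Arnt also have few bases of their own.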
